A study of Macaca mulatta with 45 samples.

Results

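Subcutaneous fat of 5 rhesus monkeys that had eaten a high-fat, high-sucrose diet (HFS) for 24 months was compared with that of 2 monkeys kept on a standard diet for the same time. These 7 arrays, of 45 in the series, are the ones whose titles name subcutaneous fat, month 24 and either diet. The standard diet (SD) supplied 13% of energy as fat and held less than 5% sucrose, and the HFS diet supplied 42% of energy as fat and held about 27% sucrose. All animals were adult males, 7 to 13 years old at the start, and ate monkey chow before the study. Both diets came with a placebo treat, since a further 10 animals received resveratrol with HFS. The arrays cover 2 of the 4 standard-diet animals and 5 of the 10 HFS animals, each array from another animal, and every one of the 7 animals also has an array of its subcutaneous fat from before the diets. Animals are called SD 1 and 2 and HFS 1 to 5 after the replicate numbers of their month 24 arrays.

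Subcutaneous fat stores triglyceride in adipocytes and releases it as fatty acids, and it holds blood vessels, stromal cells and immune cells beside the fat cells. In obese fat, macrophages gather around dying adipocytes, take up lipid, and switch on lysosomal enzymes and scavenger receptors. Collagen, cytokine and interferon genes are read in such tissue as signs of remodelling and inflammation, and immediate early genes respond within minutes to hormones, stress and tissue handling. The arrays carry human probes, so a monkey sequence that differs from a probe lowers its signal. Levels are therefore compared between arrays for 1 gene and never between genes, and all levels below are normalized log2 intensities.

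The 7 arrays were alike in brightness, with median raw signals of 51.5 to 54.5. Detected probes numbered 16315 in SD 1 and 17197 in SD 2, against 15712 to 16322 in the HFS arrays. The means were 16012 for HFS and 16756 for SD (exact permutation test, two-sided p = 0.0952, where 0.0476 is the smallest p that 21 splits allow). The fat cell marker FABP4, a fatty acid carrier, lay at 14.54 and 14.51 in the SD arrays and at 14.52 to 14.62 in the HFS arrays. Over 13 tested adipocyte markers the mean level was 10.61 to 11.14 in all 7 arrays. The 2 SD arrays were the least alike of the 21 pairs: across 12130 genes their differences had a standard deviation of 0.69, against 0.39 to 0.66 in the other pairs. SD 1 stood nearest to HFS 5 and HFS 1 (0.45 and 0.47), and SD 2 stood nearest to HFS 3 (0.56).

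With both SD arrays together, 0 of 12130 genes (0%) passed an adjusted p of 0.05 (limma), and the smallest adjusted p was 0.129. At an unadjusted p under 0.05, 63 genes were higher on HFS (0.519%) and 166 were lower (1.37%), 229 in all (1.89%). In this fit detection on either SD array was enough to keep a probe. Genes high in a single SD array could enter through it, which favours calls lower on HFS. The counts and their direction are thus partly set by the filter. The median difference over all genes was -0.01, with 48.3% of genes above 0 and 51.7% below. A description that needs no test is whether the groups overlap. In 299 genes (2.46%) all 5 HFS arrays lay above both SD arrays, and in 325 (2.68%) all 5 lay below both, 624 in all (5.14%). The gap between the groups was mostly narrow, with a median of 0.06 in each direction, and it exceeded 0.5 in 9 of the 299 and in 2 of the 325.

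**Figure D1:**
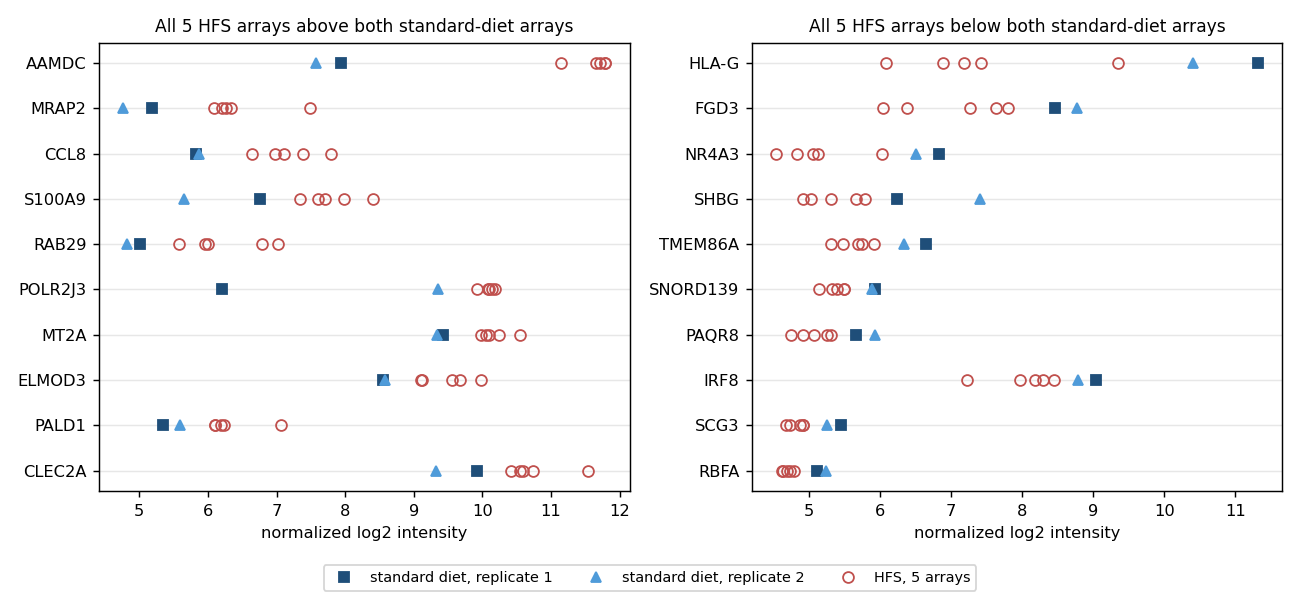
Normalized log2 intensity (x axis) of the 10 genes with the widest gap in each direction (y axis), with 1 point per array: SD 1 (square), SD 2 (triangle) and the 5 HFS arrays (open circles). AAMDC has the widest gap above and HLA-G the widest below, and for POLR2J3 SD 2 lies near the HFS arrays while SD 1 lies far below them.

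Several of the widest gaps were already present in these animals before any diet was given. AAMDC, named after a part in adipogenesis seen in mouse cells, read 7.93 and 7.57 in SD 1 and SD 2 and 11.15, 11.71, 11.79, 11.66 and 11.79 in HFS 1 to 5. The gap between the lowest HFS array and the higher SD array was 3.21, and the difference of means was 3.87 ± 1.09 (standard error) with an adjusted p of 1. In fits without the brighter set of baseline arrays the same difference passed, with an adjusted p of 0.000301 from the 7 arrays alone and 5.95e-06 from the darker array set. At month 0 the same animals read 8.20 and 7.65 for SD and 10.44, 11.10, 11.51, 10.75 and 12.48 for HFS. The change over 24 months was -0.27 and -0.08 in the SD animals and lay between -0.69 and 0.91 in the HFS animals. Of the 17 other animals at month 0, 7 lay below the lowest of these 5 HFS animals, and visceral fat of the animal SD 1 read 6.95 where that of HFS 2 and HFS 3 read 11.87 and 11.58. These 5 HFS and 2 SD animals did not overlap at either time, while at month 0 all 4 SD animals (7.65 to 11.78) overlapped with all 10 HFS animals (5.85 to 12.48).

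POLR2J3, one of several near-identical copies of an RNA polymerase II subunit gene that a probe may not tell apart, was far lower in SD 1 than in the other 6 animals. Its level was 6.21 in SD 1, 9.36 in SD 2 and 9.92 to 10.19 in the HFS arrays. Before the diets SD 1 read 6.68, SD 2 read 9.5 and the HFS animals 9.70 to 10.19, and visceral fat of the animal SD 1 read 5.41. The copy POLR2J2 read 4.58 in SD 1, 6.09 in SD 2 and 6.34 to 6.93 on HFS. COMMD4, which encodes a protein of the COMM domain family, had the same shape, with 7.37 in SD 1, 8.94 in SD 2 and 9.18 to 9.38 on HFS, against 7.09, 8.85 and 8.97 to 9.23 at month 0. In both genes SD 1 was the low animal at each time.

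AKR1C2, a steroid-reducing enzyme with near-identical relatives, was undetected in both SD arrays (4.44 and 4.65) and detected in all 5 HFS arrays (5.03, 6.68, 6.51, 6.34 and 7.62). It was at least 2.84-fold higher on HFS (adjusted p = 1) on the brightest of 3 probes. The other two probes, detected on 2 and 1 of the 7 arrays, differed by 0.06 and 0.0083. The month 0 levels were 4.68 and 4.58 for SD and 5.31 to 7.06 for HFS, so this gap too stood before the diets. PAGE5, a gene of the PAGE family that is best known from testis, was undetected in both SD arrays (4.50 each) and reached 5.79, 8.23, 5.26, 4.77 and 5.99 in HFS 1 to 5, detected in 4 of these. It was at least 2.11-fold higher (adjusted p = 1), and HFS 2 was the highest array. Before the diets it read 4.55 and 4.50 for SD and 4.64 to 5.11 for HFS.

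HLA-G had the widest gap downwards. Its human probe reads an MHC class I gene, a family of many like copies in macaques, so the gene measured is uncertain. The level was 11.32 and 10.41 in SD 1 and 2 and 9.34, 6.09, 7.18, 7.41 and 6.89 in HFS 1 to 5 (difference -3.48 ± 1.16, adjusted p = 1). Before the diets the SD animals read 11.64 and 10.76 and the HFS animals 10.04, 5.79, 7.05, 6.77 and 7.15. At both times the SD animals were highest, HFS 1 came next and the other 4 lay well below. FGD3, an activator of the small GTPase Cdc42, also lay apart at both times. It read 8.46 and 8.78 for SD against 6.04 to 7.80 for HFS at month 24, and 8.99 and 8.47 against 6.24 to 7.90 at month 0.

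**Figure D2:**
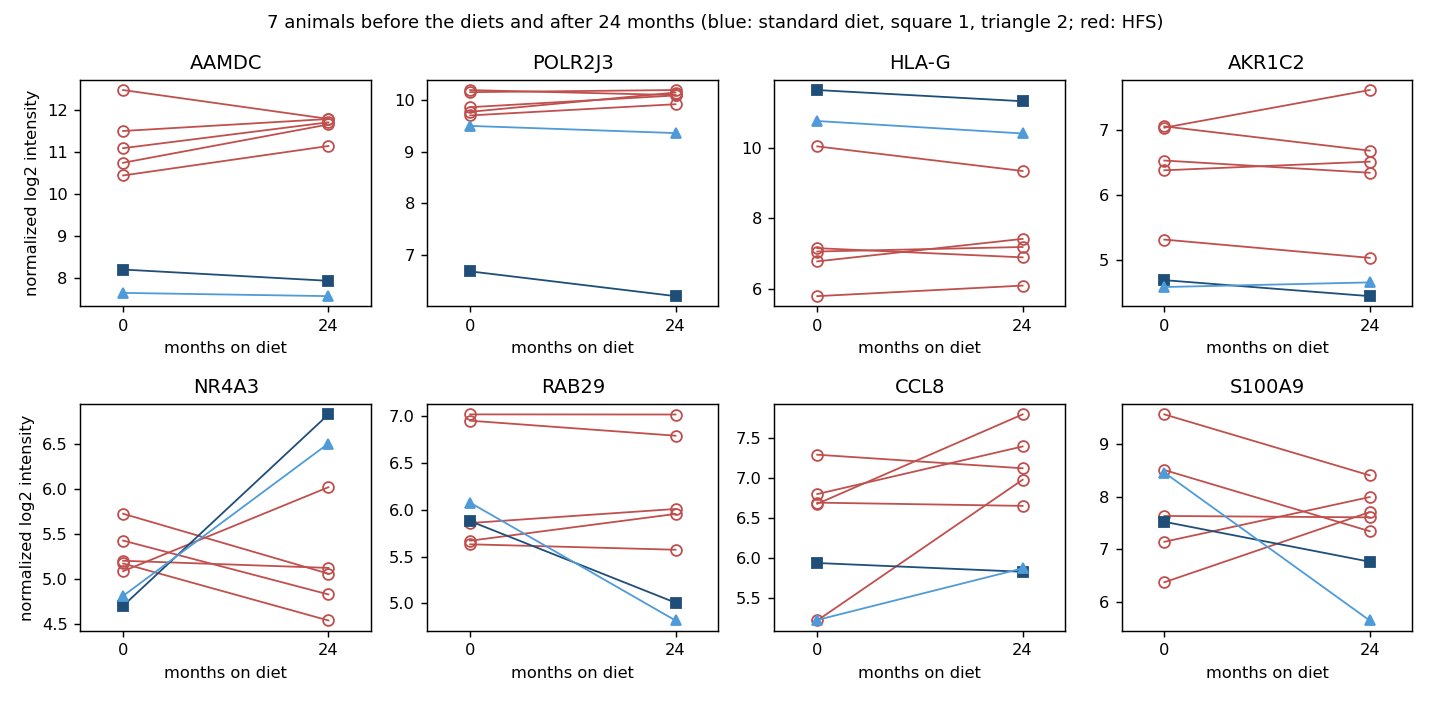
Normalized log2 intensity (y axis) of 8 genes in the 7 animals before the diets and at month 24 (x axis, months), with 1 line per animal: SD 1 (square), SD 2 (triangle) and HFS (open circles). AAMDC, POLR2J3, HLA-G and AKR1C2 keep the SD animals on 1 side of the HFS animals at both times, while the SD lines of NR4A3 cross all HFS lines from 4.70 and 4.81 to 6.83 and 6.51.

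Of the 299 genes with all HFS arrays above both SD arrays at month 24, 25 were separated in the same direction at month 0. Of the 325 below, 25 were. Among all genes, the month 0 arrays of the same 7 animals separated in 574 genes with HFS above (4.73%) and in 561 with HFS below (4.62%), before the groups differed in diet. Counting changes within each animal, all 5 HFS changes lay above both SD changes in 539 genes (4.44%) and below both in 612 (5.05%). Both the level at month 24 and the change since month 0 were separated upwards in 78 of 12130 genes and downwards in 94. The change contains the month 24 level, so these separations are not independent of each other. The baselines of HFS 4 and 5 came from a second, brighter array set and those of the other 5 animals from the same set as month 24, and the part of that in the changes was not tested. The test of the change on HFS against the change on SD used all 35 subcutaneous arrays without pairing the arrays of an animal. It passed 0 of 12130 genes (0%), with 1.81% at an unadjusted p under 0.05.

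NR4A3 was lower on HFS at month 24 although it had been higher in these 5 HFS animals than in these 2 SD animals at month 0. It encodes an orphan nuclear receptor of the immediate early class. Its level at month 24 was 6.83 and 6.51 in SD 1 and 2 and 6.02, 4.83, 5.06, 5.12 and 4.54 in HFS 1 to 5, of which HFS 2 and 5 were below detection. At month 0 it was 4.70 and 4.81 in the SD animals and 5.08, 5.43, 5.72, 5.20 and 5.17 in the HFS animals. These 2 SD animals thus went from below all 5 HFS animals to above all of them. Their month 0 levels lay below the lowest detected signals of the month 24 arrays (4.90 to 5.00). Over all 4 SD animals (4.69 to 5.92) and all 10 HFS animals (4.86 to 6.10) the month 0 levels overlapped. The difference at month 24 was -1.56 ± 0.34 (adjusted p = 0.345). The change on HFS minus the change on SD was -1.87 ± 0.41 (adjusted p = 0.886), from unpaired group means with all 4 SD and 10 HFS baselines. Fitted in limma to the changes within the 7 animals, added after seeing the data, it was -2.12 (adjusted p = 0.963). Against SD 1 alone the difference was -1.72, and against SD 2 alone it was -1.39, so the sizes against both animals were close. Without HFS 1, the highest of the 5, the difference of -1.78 passed at an adjusted p of 0.0425. HFS 1 is the HFS array nearest to SD, so leaving it out widens the difference by construction. Without HFS 2, 3, 4 or 5 in turn, 0 genes passed.

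RAB29, a small GTPase of the Golgi and lysosome, showed the reverse. It read 5.01 and 4.82 in the SD arrays, undetected in SD 2, and 7.02, 6.79, 5.57, 6.01 and 5.95 in the HFS arrays. At month 0 it had been 5.88 and 6.07 in the SD animals, inside the HFS range of 5.63 to 7.02. The changes were -0.87 and -1.26 in the SD animals and ran from -0.16 to 0.29 in the HFS animals. The difference was 1.36 ± 0.45 (adjusted p = 1), and against SD 1 and SD 2 alone it was 1.26 and 1.45.

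Some of the genes with wide gaps upwards are known from immune cells. All levels are of whole tissue, in which fewer cells of a type and less RNA per cell cannot be told apart. CCL8, a chemokine that draws monocytes, read 5.82 and 5.86 in the SD arrays and 7.79, 6.97, 6.65, 7.12 and 7.39 in the HFS arrays (difference 1.34 ± 0.52, adjusted p = 1). The SD arrays are close to each other here, and every HFS array lies at least 0.78 above them. At month 0 the SD animals read 5.93 and 5.22 and the HFS animals 6.67, 5.21, 6.69, 7.29 and 6.79, so 4 of the 5 were already higher. S100A9, a calcium-binding protein abundant in neutrophils and monocytes, read 6.77 and 5.65 against 8.40, 7.71, 7.34, 7.61 and 7.99. Its month 0 levels of 7.52 and 8.45 in the SD animals lay within the HFS range of 6.38 to 9.56. CLEC2A, a lectin known in human as a ligand of a natural killer cell receptor, read 9.92 and 9.33 against 11.54, 10.55, 10.42, 10.59 and 10.74. Over the 11 tested markers of mast cells and granulocytes the median difference was -0.01 (median of all genes -0.01), with 5 of 11 above 0. Of the 11, 1 was separated upwards (S100A9, 2.46% of all genes) and 1 downwards (2.68% of all genes). The latter was CPA3, a mast cell protease, at 8.78 and 9.48 against 7.62 to 8.60.

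The other genes of the widest gaps upwards have varied roles. MRAP2, an accessory protein of melanocortin receptors, read 5.18 and 4.77, undetected in SD 2, against 7.48, 6.09, 6.27, 6.20 and 6.34 (difference 1.5 ± 0.65, adjusted p = 1). MT2A, a metallothionein that binds zinc and copper, read 9.43 and 9.34 against 10.55, 10.06, 10.09, 9.98 and 10.24. ELMOD3, a GTPase-activating protein, was at 8.55 and 8.58 against 9.11 to 9.98, and PALD1, known from endothelium in mouse, at 5.35 and 5.59 against 6.10 to 7.06. None of these 4 genes was separated at month 0, but in MRAP2 4 of the 5 HFS animals (6.68, 4.80, 5.31, 6.74 and 5.91) already lay above both SD animals (4.74 and 4.93). In PALD1 4 of the 5 (6.83, 6.37, 7.16, 7.12 and 7.40) did so as well, with the SD animals at 6.50 and 6.54. GSTA4, a glutathione transferase that detoxifies products of lipid peroxidation, was undetected in both SD arrays (4.52 and 4.61) and detected in 3 of 5 HFS arrays (4.74 to 5.25), at least 1.05-fold higher.

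Downwards, 3 genes with wide gaps encode proteins of steroid and immune regulation. SHBG, which carries sex hormones in blood, read 6.24 and 7.40 in the SD arrays and 4.91, 5.03, 5.31, 5.78 and 5.66 in the HFS arrays, undetected in HFS 1 (difference -1.48 ± 0.46, adjusted p = 1). PAQR8, a membrane progesterone receptor, read 5.66 and 5.92 against 4.91, 5.26, 4.75, 5.06 and 5.31, undetected in HFS 1 and HFS 3 (difference -0.73 ± 0.19, adjusted p = 0.686). IRF8, a transcription factor of monocytes, dendritic cells and B cells, read 9.04 and 8.79 against 7.96, 8.44, 7.22, 8.30 and 8.18. Its SD levels at month 0 were 7.92 and 7.75, inside the HFS range of 7.17 to 8.49. In SHBG and PAQR8, by contrast, 4 of the 5 HFS animals were already below both SD animals at month 0, with SHBG at 6.40 and 6.73 against 5.16, 5.10, 5.45, 5.34 and 6.67 and PAQR8 at 5.23 and 5.84 against 5.31, 5.17, 5.16, 4.90 and 4.95. TMEM86A, an enzyme that breaks down lysoplasmalogens, was at 6.64 and 6.34 against 5.30 to 5.91. In this gene too 4 of the 5 HFS animals (5.60, 5.01, 5.14, 5.15 and 5.42) were already below both SD animals (5.63 and 5.60) at month 0.

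Other genes lower on HFS lay near the detection limit. LRP8, a receptor for apolipoprotein E, was detected in both SD arrays (5.52 and 5.07) and in 0 of 5 HFS arrays (4.59 to 4.91), at least 1.25-fold lower on HFS (adjusted p = 0.378). SCG3, a secretory granule protein, and RBFA, a mitochondrial ribosome assembly factor, were also detected in the SD arrays alone, at least 1.30-fold and 1.15-fold lower (adjusted p = 1 and 0.919). DNHD1, a dynein-like gene, had the smallest adjusted p of all genes at 0.129 but was detected in SD 1 alone (5.18), with SD 2 at 4.57 and HFS at 4.33 to 4.46, so no fold is given. Another DNHD1 probe, which the detection filter had removed, differed by 0.045, against -0.47 on the probe used. In RBFA and DNHD1 4 of the 5 HFS animals were already below both SD animals at month 0. The DNHD1 levels at month 0, 4.33 to 4.53, all lay below the lowest detected signals of the month 24 arrays (4.90 to 5.00).

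Each SD array was then compared alone with the 5 HFS arrays, with the spread taken from all groups. In these fits a probe detected on the lone SD array was kept even if no other array detected it. Genes high in that array alone therefore entered through it, which favours calls lower on HFS. The counts and their direction are thus partly set by the filter. Against SD 1, 5 of 11780 genes passed (0.0424%), of which 1, POLR2J3, was higher on HFS (0.00849%) and 4, DNHD1, LRP8, LINC02209 and LCT, were lower (0.034%). Against SD 2, 22 of 11937 genes passed (0.184%), all lower on HFS. At an unadjusted p under 0.05 the counts were 232 (1.97%) and 695 (5.82%). Passing against both could be judged only for genes kept in both fits. DNHD1, LINC02209 and LCT were not tested against SD 2, and IL4I1, SLC7A5 and CDH1, among others, were not tested against SD 1. At an unadjusted p under 0.05 against each array, 4 genes were higher on HFS (0.0345%) and 9 were lower (0.0777%). The 4 were AAMDC, RAB29, GSTA4 and PAGE5. The 9 include NR4A3, LRP8, PAQR8, RBFA and TDRD10, and also PIKFYVE and OR4K17, for which each SD array was compared on another probe and no single probe was lower against both. Counted by overlap, all HFS arrays lay above SD 1 in 1407 genes (11.6%) and below it in 1790 (14.8%), and above SD 2 in 2328 (19.2%) and below it in 2203 (18.2%). In 871 genes (7.18%) the 2 SD arrays lay on opposite sides of all 5 HFS arrays.

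Among the 22 genes that passed against SD 2 alone, 7 are described here. Those that are outside the naming rule were picked after their values were seen. ADAP2, which regulates the small GTPase ARF6, was detected in SD 2 alone at 7.17, against 4.55 in SD 1 and 4.30 to 4.78 in the HFS arrays. SD 2 was at least 4.57-fold above the HFS arrays (adjusted p = 3.34e-07). IL4I1, an amino acid oxidase secreted by myeloid cells, was likewise detected in SD 2 alone (6.0, at least 2.03-fold above HFS, adjusted p = 1.72e-06). The large neutral amino acid transporter SLC7A5 was at 6.80 in SD 2, at least 3.55-fold above HFS, and the cadherin CDH1 at 7.35, at least 5.17-fold above. LILRA2, an activating receptor of monocytes, read 7.09 in SD 2, 4.33 in SD 1 and 4.42 to 5.07 on HFS. FERMT3, an integrin activator of blood cells, read 7.88 in SD 2, 4.58 in SD 1 and 4.99 to 5.51 on HFS, and the lysosomal protease CTSD read 8.44, 6.12 and 5.61 to 6.30. In these 7 genes SD 1 lay inside or below the HFS range, and SD 2 stood apart.

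In several of these genes the animal SD 2 already stood apart at month 0. ADAP2 read 5.67 in its fat then, against 4.38 to 4.61 in the HFS animals. CTSD read 7.21 against 5.64 to 6.69, LILRA2 read 5.53 against 4.33 to 4.77, and CLEC1B, a lectin receptor of platelets and some myeloid cells, read 7.75 against 4.49 to 5.60. By month 24 CLEC1B was at 7.86 in SD 2, 4.40 in SD 1 and 4.43 to 5.4 on HFS. CDH1 read 4.76 in SD 2 and 4.32 to 4.59 in the HFS animals at month 0. These levels all lay below the lowest detected signals of the month 24 arrays (4.90 to 5.00).

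**Figure D3:**
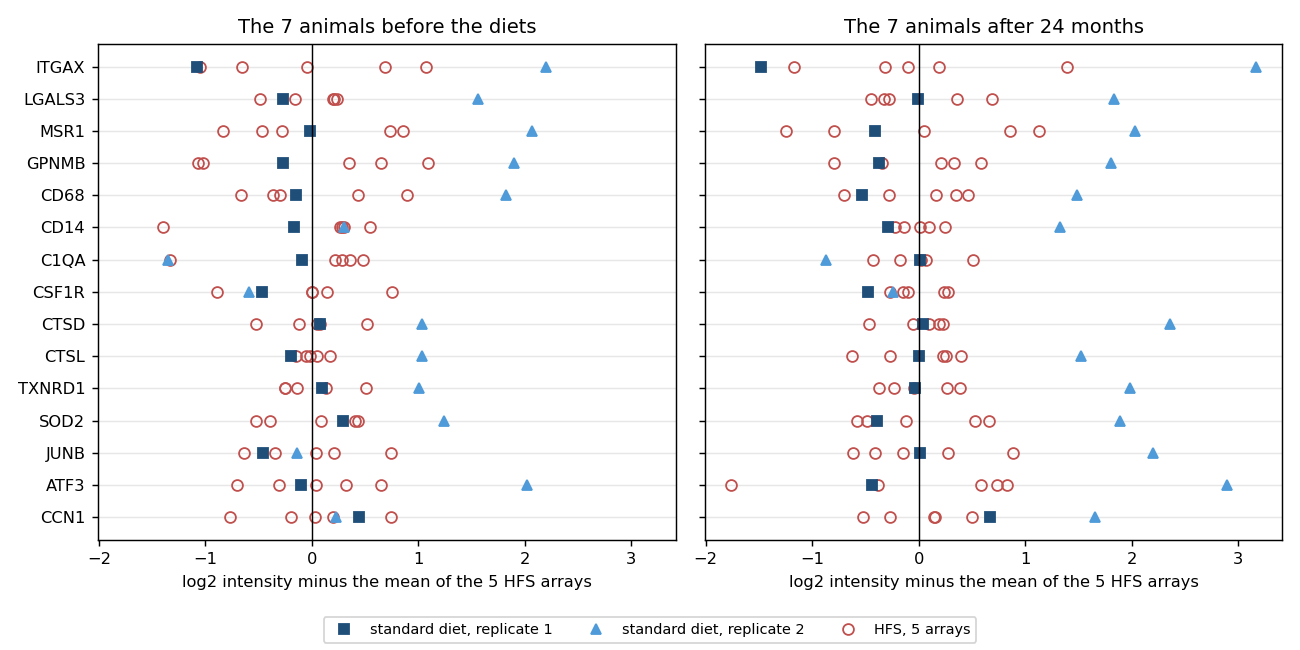
Levels of 15 genes (y axis) in the 7 animals before the diets and at month 24, as log2 intensity minus the mean of the 5 HFS arrays (x axis), with 1 point per array. SD 2 (triangle) lies to the right of all HFS arrays at month 24 in each gene but C1QA and CSF1R. Before the diets it did so in genes that include ITGAX, GPNMB, CD68, MSR1 and CTSD.

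The macrophage list followed the same division between the 2 SD animals. Of 25 markers 22 were tested and 0 passed, and the median difference was 0.01. Against SD 1 alone that median was 0.41, and against SD 2 alone it was -0.82, so the sign depends on the animal. SD 2 lay above all HFS arrays in 11 of 22 markers (18.2% of all genes did so), while SD 1 lay below all of them in 10 (11.6% of all genes). ITGAX, the CD11c integrin of lipid-laden macrophages, read 4.46 in SD 1, undetected, and 9.11 in SD 2, with 6.13, 5.84, 5.63, 4.77 and 7.33 in HFS 1 to 5, undetected in HFS 4. The glycoprotein GPNMB read 8.5 and 10.68 against 8.08 to 9.46, the scavenger receptor MSR1 read 6.33 and 8.76 against 5.49 to 7.86, and the lectin LGALS3 read 6.18 and 8.02 against 5.75 to 6.88. The lysosomal membrane marker CD68 was at 11.12 and 13.13 against 10.95 to 12.11, and the endotoxin co-receptor CD14 at 11.65 and 13.27 against 11.71 to 12.18. SPP1, the secreted protein osteopontin, named after its values were seen, spanned 5.87 in SD 1 to 11.28 in SD 2. C1QA and CSF1R, also looked up after seeing their values, did not have this shape: C1QA, a complement component, read 9.01 and 8.13 against 8.57 to 9.51, and CSF1R, the receptor for the macrophage growth factor, read 11.20 and 11.43 against 11.41 to 11.95.

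At month 0 the animal SD 2 already had the highest ITGAX (7.63), GPNMB (10.53), MSR1 (7.85) and CD68 (12.31) of the 7 animals, and SD 1 had 4.35, 8.36, 5.76 and 10.34. Over the 22 markers the mean level of SD 2 was 8.73 at month 0 and 9.73 at month 24, and that of SD 1 was 8.0 and 8.37. In the HFS animals the mean was 7.58 to 8.83 at month 0 and 8.5 to 9.27 at month 24. The SD 2 mean was above that of every HFS animal at month 24 and inside their range at month 0. Summed on the linear scale, the 22 markers came to 51775 intensity units in SD 2 at month 24, 17152 in SD 1 and 20816 to 29217 on HFS. The part of this in the genes that passed against SD 2 alone, and in the lysosomal, antioxidant and immediate early genes, was not tested.

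Lysosomal genes were higher in SD 2 than in the other arrays almost throughout the list. Of 22 tested members 0 passed, and the median difference was -0.31, with 3 of 22 above 0. SD 2 lay above all HFS arrays in 18 of 22 (18.2% of all genes), and SD 1 in 0 (14.8% of all genes). At month 0 SD 2 already had the highest mean of the list, 9.69 against 9.22 in SD 1 and 8.95 to 9.51 in the HFS animals. The protease CTSL read 12.12 in SD 1 and 13.64 in SD 2 against 11.49 to 12.51 on HFS. The median was 0.16 against SD 1 and -0.77 against SD 2. Antioxidant enzymes gave a median of -0.32 with 5 of 21 above 0, or -0.07 against SD 1 and -0.45 against SD 2, and -0.18 with median scaling of the arrays. In the same 7 animals the median was already -0.32 at month 0. SD 2 lay above all HFS arrays in 12 of 21 (18.2% of all genes). Thioredoxin reductase, TXNRD1, read 9.29 and 11.30 against 8.94 to 9.71. The mitochondrial superoxide dismutase SOD2 read 10.72 and 13.01 against 10.54 to 11.77, and glutathione reductase, GSR, read 5.47 and 6.44 against 5.24 to 5.65. A weaker GSR probe, detected on 5 of the 7 arrays, differed by 0.05, against -0.56 on the probe used. In 1 member, MT2A above, all HFS arrays lay higher (2.46% of all genes), and in 1, the glutathione transferase GSTP1, both SD arrays did (2.68%), at 12.95 and 12.89 against 12.31 to 12.78.

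Immediate early genes were lower on HFS in most of the list, again with SD 2 as the high array. Of 31 tested members 0 passed, 3 lay above 0 and the median was -0.32. Against SD 1 alone the median was -0.01, and against SD 2 alone it was -0.75. SD 2 lay above all HFS arrays in 18 of the 31 (18.2% of all genes), and SD 1 in 3 (14.8% of all genes). The AP-1 subunit JUNB read 5.63 and 7.82 against 5.90, 5.21, 6.51, 5.47 and 5.01, and ATF3, a stress-induced transcription factor, read 6.11 and 9.44 against 7.28, 7.37, 4.78 (undetected), 6.16 and 7.13. FOS, also of AP-1, read 11.35 and 12.60 against 9.82 to 11.86, so SD 1 lay among the HFS arrays. In 2 of the 31 members all HFS arrays lay below both SD arrays (2.68% of all genes). They were NR4A3 and CCN1, a matrix-associated signalling protein at 10.68 and 11.67 against 9.49 to 10.51. At month 0 CCN1 was already below both SD animals (9.87 and 9.66) in 4 of the 5 HFS animals (9.63, 9.24, 10.17, 9.47 and 8.67). The list's mean level at month 0 was 7.33 and 7.47 in the SD animals and 7.31 to 7.82 in the HFS animals, and at month 24 it was 7.81 and 8.71 against 7.39 to 8.03.

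**Figure D4:**
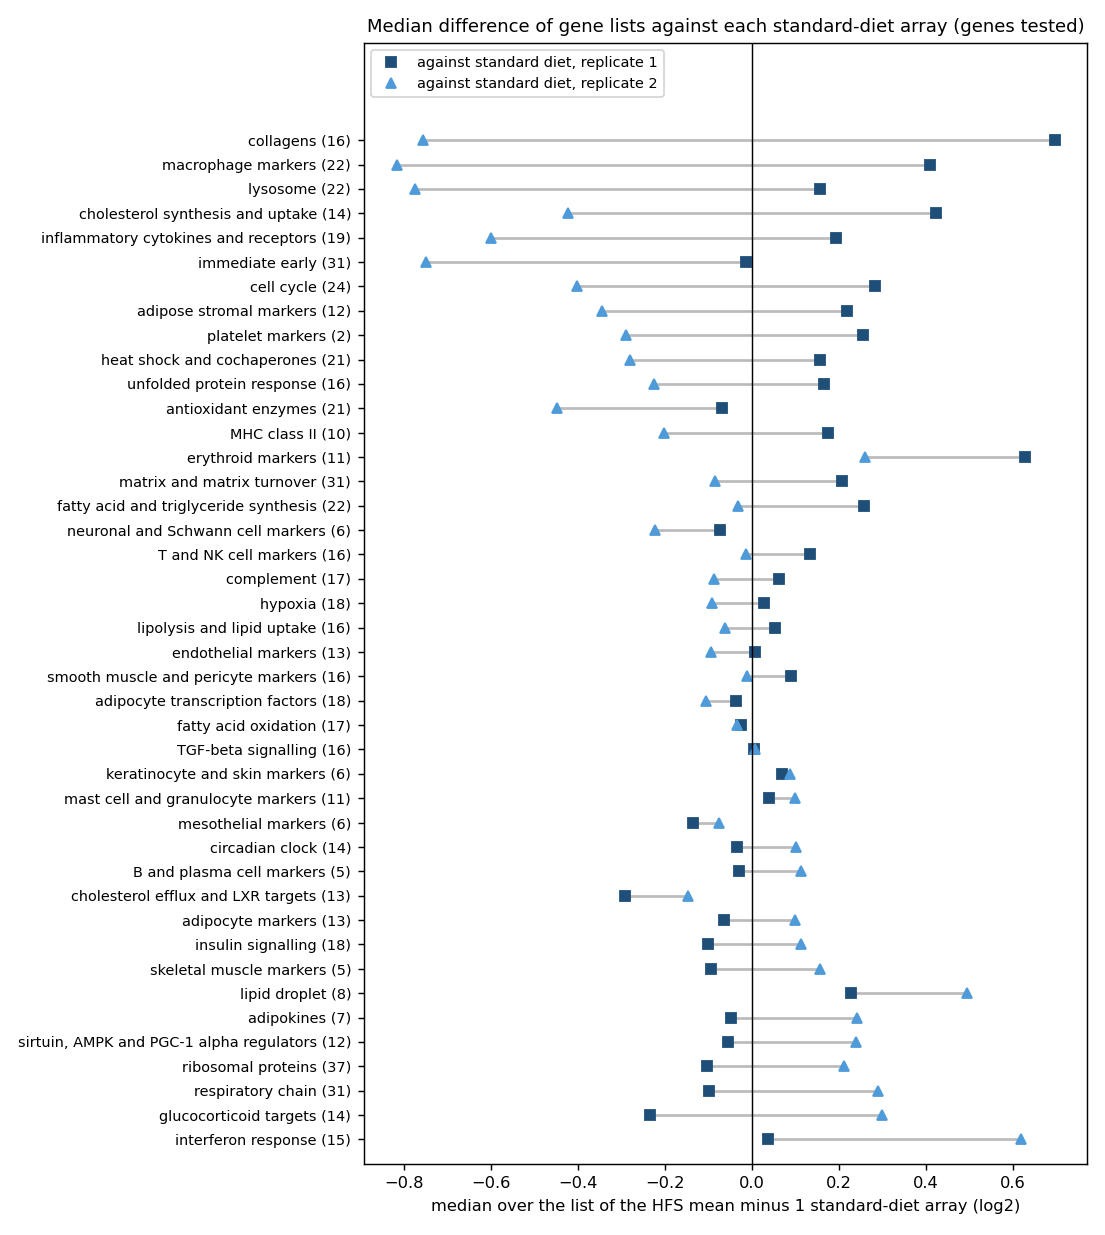
Median over each gene list of the HFS mean minus SD 1 (square) or minus SD 2 (triangle), in log2 units (x axis), for 42 lists (y axis, genes tested in brackets), sorted by the difference between both medians. Collagens, macrophage markers and the lysosome lie to the right of 0 against SD 1 and to the left against SD 2, while erythroid markers and the lipid droplet lie to the right against both.

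Inflammatory cytokines and their receptors had a median of -0.13 (0.19 against SD 1, -0.60 against SD 2), with 5 of 19 above 0 and 0 passing. CCL2, the main monocyte chemoattractant, read 6.27 in SD 1 and 9.64 in SD 2, with 9.51, 8.77, 8.03, 7.56 and 8.5 in the HFS arrays between them. IL6 read 5.88 and 7.75 against 8.03, 7.55, 7.78, 5.38 and 5.19, a wide range within HFS. CCL8 was the 1 member above both SD arrays (2.46% of all genes), and NFKB1, a subunit of the transcription factor NF-kappa B, was the 1 member below both (2.68%), at 9.83 and 9.88 against 9.21 to 9.81.

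Collagens differed between the SD animals by more than any other list in the plot of list medians. Of 16 tested members 0 passed and 9 lay above 0. The median was 0.12, or 0.70 against SD 1 and -0.76 against SD 2. COL1A1, a chain of the main fibrillar collagen, read 9.82 in SD 1, 12.45 in SD 2 and 9.42, 11.90, 13.81, 11 and 11.37 in HFS 1 to 5. COL3A1, of the reticular collagen, read 5.54 and 6.94 against 7.05, 7.28, 8.28, 5.81 and 7.19, above SD 1 in 5 of 5 HFS arrays. COL8A1, a short-chain collagen, read 9.11 and 9.67 against 7.69, 8.79, 10.09, 8.15 and 6.15. HFS 3 had the highest level of the HFS arrays in each of these 3 genes. Its mean over the list was 10.71, against 9.10 to 9.66 in the other HFS arrays and 8.88 and 10.20 in the SD arrays. The adipose stromal markers were also highest in HFS 3 and SD 2, with means of 10.37 and 10.15 against 9.04 in SD 1 and 9.07 to 9.68 in the other HFS arrays. Their part in the collagen levels was not tested.

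In interferon and erythroid genes the median had 1 sign against both SD animals. Interferon response genes had a median of 0.18 (0.04 against SD 1 and 0.62 against SD 2), with 14 of 15 above 0, against 48.3% of all genes, and 0 passing. IFI44L read 6.64 and 5.92 against 6.78, 8.20, 7.05, 6.93 and 6.73, and XAF1 read 4.99 and 5.10 against 5.39, 5.10, 5.42, 5.38 and 5.44, with gaps between the groups of 0.08 and 0.00. IFIT1, which binds foreign RNA, read 8.82 and 8.31 against 9.79, 10.50, 8.43, 9.65 and 9.07, with HFS 3 between the SD arrays. The IFI44L and IFIT1 probes used differed by 0.86 and 0.92. A weaker probe of each, detected on 6 of the 7 arrays, differed by -0.07 and -0.0037. SD 2 was the low array of the list, with a mean of 6.63, where SD 1 was at 7.39 and HFS at 6.96 to 7.92. At month 0 the means were 6.73 and 6.69 against 6.54 to 7.24.

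Erythroid markers, which follow the blood left in a sample, had a median of 0.52 (0.63 against SD 1 and 0.26 against SD 2), with 10 of 11 above 0 and 0 passing. The same 7 animals had a median of 0.50 at month 0, before the diets. The alpha globin HBA2 read 12.11 in SD 1, 14.36 in SD 2 and 13.81 to 14.55 on HFS, so SD 1 was the low array, and the beta globin HBB read 13.72, 14.74 and 14.42 to 15.03. The globin genes have near-identical copies and are uncertain as single genes. ALAS2, which starts haem synthesis in red cell precursors, read 6.42 and 8.38 against 9.69, 10.21, 7.80, 8.18 and 8.06. AHSP, the alpha globin chaperone, was undetected in SD 1 (4.87), with 5.03 in SD 2 and 5.15 to 5.97 on HFS. The summed level of the list was 22429 in SD 1, 59647 in SD 2 and 45540 to 75530 on HFS. The part of blood content in other differences against SD 1 was not tested.

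In the fat cell markers and the genes of insulin action and fatty acid metabolism the medians lay between -0.07 and 0.09. The adipocyte markers had a median of -0.01 with 6 of 13 above 0, insulin signalling -0.07 with 8 of 18, fatty acid and triglyceride synthesis 0.09 with 14 of 22, fatty acid oxidation -0.06 with 7 of 17, and 0 passed in any. Against SD 1 and SD 2 alone the median was -0.06 and 0.10 for the adipocyte markers and -0.10 and 0.11 for insulin signalling. It was 0.26 and -0.03 for synthesis and -0.02 and -0.04 for oxidation, so the sign turned with the SD animal in all of these lists but the last. LEP, the satiety hormone leptin, read 10.02 and 9.72 in the SD arrays and 10.24, 9.87, 10.00, 9.95 and 9.74 in the HFS arrays, a difference of 0.09 ± 0.27. IRS1, the adaptor below the insulin receptor, read 6.93 and 6.81 against 6.59 to 7.08, a difference of 0.05 ± 0.40. PPARG, the master regulator of adipocytes, differed by -0.04 ± 0.29 and FABP4 by 0.04 ± 0.21.

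Of 20 genes singled out for fat, insulin and inflammation 16 were tested, and 0 had an unadjusted p under 0.05. SCD, the desaturase that makes oleate, had the largest of their differences at 1.71 ± 1.27. It read 8.49 in SD 1, 12.75 in SD 2 and 12.52, 13.59, 12.92, 10.62 and 12.01 in HFS 1 to 5, and the difference was 3.84 against SD 1 alone and -0.42 against SD 2 alone. At month 0 the animal SD 1 had read 13.86, in the HFS range of 11.42 to 13.92. FASN, fatty acid synthase, ranged from 8.64 to 11.98 on HFS around 9.62 and 10.29 for SD. The lipases PNPLA2, LIPE and LPL differed by 0.34 ± 0.64, -0.55 ± 0.69 and -0.01 ± 1.85, CAT, catalase, by -0.35 ± 0.50, and the deacetylase SIRT1 by -0.12 ± 0.57.

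Lipid droplet genes had a median of 0.30 (0.23 against SD 1 and 0.49 against SD 2), with 5 of 8 above 0. PLIN5, a droplet coat protein that ties droplets to mitochondria, read 9.57 and 9.30 against 10.38, 9.27, 10.36, 10.42 and 10.28, with HFS 2 below both SD arrays and the other 4 above. PLIN1, the main droplet coat of adipocytes, read 8.14 and 6.88 against 7.48 to 8.47. Of the fatty acid and triglyceride synthesis genes 1 lay above both SD arrays (2.46% of all genes) and 1 below (2.68%), and of the fatty acid oxidation genes 2 lay above and 0 below. FADS1, which desaturates dietary polyunsaturated fatty acids, lay above both SD arrays at 7.25 to 7.69 against 6.94 and 6.70. FADS2, the other desaturase of this pathway, was the one below and was undetected on all 7 arrays. CPT1B, a muscle-type carnitine transferase, lay above but was detected in HFS 4 alone. PPARGC1A, a coactivator of mitochondrial genes, lay above as well, at 6.13 to 6.81 against 5.73 and 6.01. At month 0 neither FADS1 nor PPARGC1A was separated: FADS1 read 8.45 and 6.46 in the SD animals and 7.26 to 9.0 in the HFS animals, and PPARGC1A 7.44 and 6.42 against 6.47 to 8.53.

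In visceral fat of other arrays of the series (2 SD and 4 HFS animals, of which SD 1, HFS 2 and HFS 3 are shared) the same comparison passed 1 of 11657 genes (0.00858%), IMP3, a nucleolar protein of ribosome assembly, with 572 at an unadjusted p under 0.05 (4.91%). In subcutaneous fat IMP3, looked up after its visceral value was seen, was undetected in SD 1 (4.47) and read 8.10 in SD 2 and 8.53 to 8.92 in the HFS arrays. It was low in 1 of the 2 SD animals and near the HFS level in the other. Before the diets IMP3 in subcutaneous fat already ranged from 4.41 to 8.83 in the 4 SD animals. In the 10 HFS animals it ranged from 7.36 to 9.57 at that time. Before the diets, over 4 SD and 10 HFS animals, 1 of 12130 genes passed (0.00824%), ZNF665, which was lower by 0.40 in the later HFS animals (log2 difference -0.40), with 356 at an unadjusted p under 0.05 (2.93%). In the 4 resveratrol arrays of month 24, whose animals ate the same HFS diet, AAMDC ranged from 10.34 to 11.55, CCL8 from 6.17 to 7.95, NR4A3 from 4.59 to 5.76 and RAB29 from 6.26 to 6.63. In some other genes of wide gaps resveratrol arrays reached the level of at least 1 SD array. These include HLA-G (8.36 to 10.84), IRF8 (8.09 to 9.5), MT2A (7.06 to 9.92) and S100A9 (6.57 to 8.87). They also include CLEC2A (8.62 to 10.39), ELMOD3 (8.19 to 10.03), AKR1C2 (4.38 to 6.87) and SHBG (4.99 to 6.51). In others they reached neither SD array: FGD3 was at most 7.12, TMEM86A at most 5.78 and PAQR8 at most 5.55. PALD1 was at least 5.82, MRAP2 at least 5.20 and POLR2J3 at least 9.52. Before the diets the resveratrol animals ranged from 4.52 to 7.15 in AKR1C2 and from 6.33 to 9.74 in HLA-G. The part of resveratrol in these levels was not tested. The 4 genes named first were picked, and the others grouped, after their values were seen.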

How the data were processed

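RNA of rhesus subcutaneous fat was hybridised to human Illumina HT-12 bead arrays. The deposited table holds 1 average signal intensity per probe and array with a detection p-value, made by the authors with GenomeStudio 1.9.0 per the submitters' processing notes, with no normalization per the file headers. A second deposited table holds a z score per array and was used as an alternative. Of 47323 probes 92 were empty and 47231 were used, of which 30113 had 1 gene symbol, 8 several and 17110 none in the platform annotation. Intensities were background-corrected and quantile-normalized by neqc (offset 16) in limma 3.58.1 under R 4.3.3, over all 45 arrays.

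Probes detected (p below 0.05) on a share of at least 0.5 of the arrays of a group were kept, and the brightest stood for its gene. Limma's moderated test with a trend was fitted to 35 subcutaneous arrays (29 residual degrees of freedom), with Benjamini-Hochberg adjustment over 12130 genes, and separately to 10 visceral arrays (7 residual degrees of freedom). Against a single SD array the spread comes from the other groups, and detection on that array is enough to keep a probe. The month 24 arrays and 8 of 24 baselines are darker (median signal 48.5 to 59.0) than the other 16 baselines (77.8 to 97.3), 2 sets read from brightness and number format. Where a gene was undetected on all arrays of a side, an "at least" fold is given against the lowest detected signal of each array. The number of arrays limits the precision.

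Named genes were the 10 of smallest unadjusted p and the 10 of widest gap in each direction, 20 set genes of fat and inflammation, up to 5 genes of smallest p per list with any separated member of a list described, and genes passing against each SD array or in the changes. Not all are printed. Members and the 42 lists were chosen with earlier results of these data known. Alternatives covered normalization, filters, arrays in the fit, spread, blocks, probe choice and left-out arrays. The test was checked on simulated data. Some of the set genes are not reported here.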

Additional observations from a re-analysis of the deposited data

Results flagged for a closer look

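Of 128 sets of 5 HFS values examined, 11 had 1 array far from the other 4 (gap over range above 0.71, Dixon's value for 5), where chance gives about 1 in 20 such sets. HFS 1 was low in AAMDC at 11.15, with the others at 11.66 to 11.79. The same animal was high in MRAP2 at 7.48 (others 6.09 to 6.34) and in CLEC2A at 11.54 (others 10.42 to 10.74). HFS 2 was high in the interferon gene IFI44L at 8.20 (others 6.73 to 7.05), low in XAF1 at 5.10 (others 5.38 to 5.44) and low in PLIN5 at 9.27 (others 10.28 to 10.42). HFS 3 was high in PALD1 at 7.06 (others 6.10 to 6.23) and low in PPARG at 11.67 (others 12.05 to 12.19). HFS 5 was high in CLEC1B at 5.4 (others 4.43 to 4.61). HFS 4 had the highest mean over the lipolysis and lipid uptake genes, 9.31 (others 8.68 to 8.84), and the lowest over the cell cycle genes, 6.08 (others 6.53 to 6.62).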

How the results depend on the processing

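Counts of genes past a threshold rest on 2 SD animals. Of 85 genes examined under all alternatives, 55 had 1 direction throughout and 75 had 1 direction under every alternative other than left-out arrays. Some genes were named because their groups did not overlap. On the same probe such a gene cannot turn when 1 array is left out, so the 55 partly restates that choice. Apart from the change of probe in DNHD1, the causes of the shifts below were not tested.

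The count of genes past an adjusted p of 0.05 at month 24 was 0, and 1 in the fits of the 7 arrays alone, the 11 month 24 arrays, all 45 arrays and the darker array set. It was AAMDC except with all 45 arrays, where DNHD1 passed (adjusted p = 0.0298). Leaving out 1 array gave 0 to 22, with 22 without SD 1, 5 without SD 2 and 1 without HFS 1. The count at an unadjusted p under 0.05 was 99 with median scaling, 150 with z scores, 644 with no filter and 129 with detection on all arrays of a group, and 221 to 695 with 1 array left out. Without a filter, groups did not overlap in 694 genes with HFS above and 655 with HFS below. These counts were 386 to 2285 and 461 to 2187 with 1 array left out, since fewer arrays separate more often. Against SD 1 alone the count of 5 was 1 without background correction, 0 with median scaling, 1 with z scores, 8 with no filter, 2 with all 45 arrays, 3 in the darker set and 3 without the trend. Against SD 2 alone the count of 22 was 11 with median scaling, 46 with no filter, 14 with the 7 arrays, 5 with all 45 arrays, 14 in the darker set and 34 at an adjusted p of 0.1. The change contrast passed 0 to 13 genes with 1 array left out, 13 without SD 1 and 2 without SD 2, and 0 when fitted to the changes within the 7 animals, a fit added after seeing the data. The month 0 count of 1, whose alternatives were chosen after seeing the data, was 0 without background correction, with z scores, with detection on all arrays and without the trend, 2 with array weights, and 0 to 1 with 1 array left out.

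Replicate numbers do not pair animals: same-numbered SD and HFS arrays come from different animals and their deviations correlated at 0.20 and 0.04. The replicate block passed 0 genes at month 24 and 0 at month 0, and 404 at an unadjusted p under 0.05. It turned COL1A1 to -0.031, IL6 to 0.084, FASN to -0.030, IRS1 to -0.0033, SIRT1 to 0.21 and PNPLA2 to -0.23. A random block for the animal used a correlation of 0.26 and turned FASN to -0.0087.

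Other settings turned further values. DNHD1 was 0.045 with no filter, where a probe that the filter had removed stood for the gene. IL6 was 0.035 without background correction, 0.0041 with z scores and 0.013 with detected probes as covariate. PPARG was 0.10 with median scaling, 0.0043 with z scores and 0.16 as a mean of probes. FABP4 was -0.026 with z scores and -0.082 with the covariate. FASN was -0.19 with array weights and -0.13 with the covariate, and SIRT1 was 0.080 with the covariate. LPL was 0.10 with median scaling, 0.0085 with z scores, 0.040 with array weights and 0.70 with the covariate.

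Leaving out 1 array turned the sign of 27 genes. Without SD 2 these include ADAP2 (-2.61 to 0.010 over all 7 omissions), LILRA2 (-2.38 to 0.39), FERMT3 (-2.66 to 0.64), CLEC1B (-3.18 to 0.28), CD68 (-1.48 to 0.53), CD14 (-1.33 to 0.29), LGALS3 (-1.83 to 0.0041), MSR1 (-2.03 to 0.41), GPNMB (-1.81 to 0.37), ITGAX (-3.17 to 1.48), C1QA (-0.014 to 0.87), TXNRD1 (-1.98 to 0.035), SOD2 (-1.89 to 0.39), ATF3 (-2.89 to 0.43), LEP (-0.064 to 0.24), PLIN1 (-0.21 to 1.05), IRS1 (-0.0068 to 0.14), IL6 (-0.96 to 0.91) and LPL (-0.21 to 0.20). Without SD 1 they include CCL2 (-1.16 to 2.21), HBA2 (-0.23 to 2.01), HBB (-0.019 to 1.0), SCD (-0.42 to 3.84), COL1A1 (-0.95 to 1.68), PPARG (-0.23 to 0.14), FASN (-0.37 to 0.46) and SIRT1 (-0.54 to 0.29).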
